A study of Mus musculus with 23 samples.

Results

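The genes described here carry proteins into the endoplasmic reticulum (ER), fold them there, remove the misfolded ones and sense when folding fails. A list of 44 genes of the secretory pathway and the unfolded protein response was used, and a member was kept if a probe set of the array named that gene and no other. That left 42 members, all of them tested among 12157 genes, out of 19938 genes with such a probe set. Sec61g and Srp54a were represented only by probe sets that name several genes and were not analysed here. The members were listed by known function, but with earlier results of these data known. All 42 stood above the array median, which served as the level of background, on all 23 arrays.

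A protein bound for the cell surface, for secretion or for an endosome is recognised by the signal recognition particle as it leaves the ribosome and is threaded through the Sec61 channel into the ER, where signal peptidase trims it and chaperones and disulfide isomerases fold it. Misfolded proteins are returned to the cytosol and degraded. When unfolded proteins build up, the sensors Ern1 (IRE1), Eif2ak3 (PERK) and Atf6 start the unfolded protein response, and the transcription factors Xbp1, Atf4 and Atf6 raise the genes of folding, degradation and stress. Plasmacytoid dendritic cells are known as secretors of type I interferon, and conventional dendritic cells of the cross-presenting kind are known to use IRE1 and Xbp1 for their survival and function.

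The study sorted dendritic cells from mouse spleen, and each array carried RNA of 1 sorted population. Conventional dendritic cells of type 1 (cDC1), which take up dead cells and present them to CD8 T cells, of type 2 (cDC2), which mostly prime CD4 T cells, and the plasmacytoid kind (pDC) were compared between mice of wild type (WT) and conditional Bcl6 knockouts (cKO), which lack this transcriptional repressor in the cells the Cre acts in. The sample sizes were 3 WT arrays of each cell type, 4 cKO arrays of cDC1, and 5 cKO arrays each of cDC2 and pDC. The sources used here do not give the Cre driver, the deleted exons, the age or the strain. Nothing in the labels states that the arrays of a group came from separate mice, so each p-value measures only how these samples vary, and that variation may be technical. In RNA of sorted cells, fewer cells of a kind and less RNA per cell cannot be told apart.

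The cells carried the markers of their labels, with Xcr1 at 9.39 or above on all cDC1 arrays and at 4.84 or below on the others, and Siglech at 12.08 or above on all pDC arrays and at 6.50 or below on the others (log2 intensity). Bcl6 itself was not lower in cKO cells, with differences of 0.96 ± 0.35 (SE) in cDC1, 0.69 ± 0.33 in cDC2 and -0.15 ± 0.33 in pDC (limma adjusted p of 0.598, 0.756 and 1). A gene-level probe set averages probes that may lie outside the deleted part, so this value checks nothing about the labels. By their medians, of 29.3 to 41.2 intensity units, the arrays were put into 3 processing sets, defined once the values had been seen. They are called A (8 arrays), B (6) and C (9), each with arrays of all 6 groups. A gap of 4.57 units parted sets B and C. The gap between A and B was 0.6, less than the largest gap of 1.16 within set B, so the medians alone do not fix that border. The members' median level was 0.42 lower in set B than in set A (log2), against 0.07 lower over all genes. In set C it was 0.26 higher than in set A, against 0.31 over all genes. Of the 42 members, 23 varied more with the set than with the cell type. The set accounted for a median of 35.2% of the members' variance, against 41.2% over all genes. Cell type accounted for 28.5%, against 20.9%. Differences are therefore also given within each set. Xist was at 10.9 or above on the 3 WT arrays numbered 1 and at 5.07 or below on all others.

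In WT cells, the chaperones Creld2, Dnajc3 and Hsp90b1 and the disulfide isomerase Pdia4 were lower in cDC2 than in both other cell types. Of the 5 isomerases, 4 were called higher in cDC1 than in cDC2, and 1 in pDC than in cDC2. Against cDC2, 8 of 42 members were higher in cDC1 and none was lower, where 3.02% of all genes tested were higher and 3.04% lower. Against cDC2, 8 of 42 were also higher in pDC and none was lower, where 4.8% of all genes were higher and 7.93% lower. Between pDC and cDC1, none was higher in pDC and 2 were lower, against 5.14% and 8.37% of all genes. The median member differed by 0.58 for cDC1 minus cDC2, by 0.48 for pDC minus cDC2 and by -0.01 for pDC minus cDC1 (log2), while the median of all genes was 0.04, -0.02 and -0.05. The comparisons share arrays (both differences from cDC2 use the same 3 cDC2 arrays) and are not independent of each other.

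The cKO cells share no array with the WT cells, but the same model gave the spread for both, and both lie in the same processing sets. In cKO cells, 8 members were higher in cDC1 than in cDC2 (4% of all genes) and none lower (4.95%). For pDC against cDC2, 10 were higher (7.27%) and none lower (13.5%). Between cKO pDC and cKO cDC1, 5 members were higher in pDC and 2 lower, where 7.9% and 12.5% of all genes were. In both genotypes 7 members were called higher in cDC1 than in cDC2, namely Creld2, Dnajc3, Pdia3, Pdia4, Pdia5, Pdia6 and Sdf2l1. Likewise 7 were called higher in pDC than in cDC2 in both genotypes, namely Creld2, Dnajb9, Hsp90b1, Manf, Pdia4, Spcs2 and Xbp1. Pdia5 and Sdf2l1 were lower in pDC than in cDC1 in both. Each of these calls had the same sign in sets A, B and C. In all, 16 members were called in at least 1 of the 6 comparisons of cell types and 26 in none, where 31.5% of all genes were called in at least 1.

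**Figure D1:**
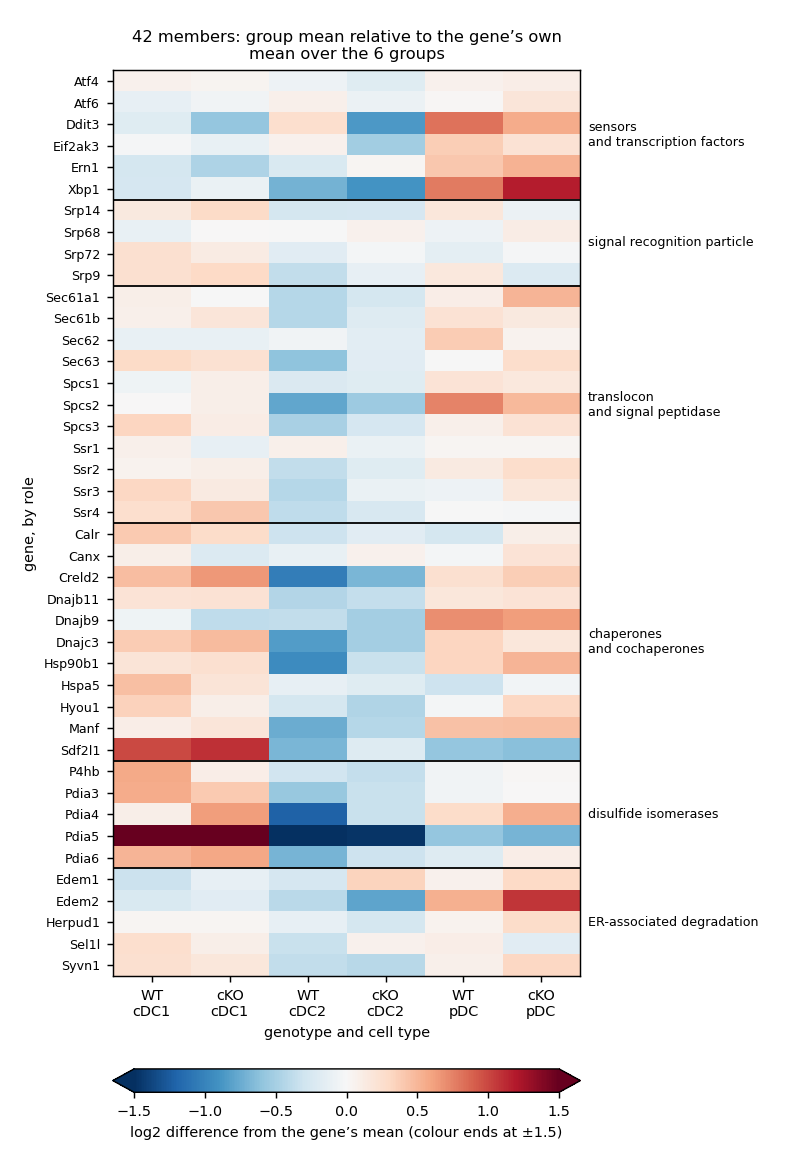
Heat map of the 42 members (rows, grouped by role) over the 6 groups (columns), with the colour giving the group's mean log2 intensity minus the mean of the 6 group means of that gene. The cDC2 columns are mostly below the gene's own mean among chaperones and isomerases, and Pdia5 and Sdf2l1 stand out in the 2 cDC1 columns.

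These counts depended on single arrays. In WT, the count for pDC against cDC2 fell from 8 to 4 without WT cDC2 array 1 or WT cDC2 array 2, to 5 without WT pDC array 1 and to 3 without WT pDC array 3. That for cDC1 against cDC2 went from 8 to 4 without WT cDC1 array 1, WT cDC1 array 3 or WT cDC2 array 2, and to 5 without WT cDC2 array 1. That for pDC against cDC1 went from 2 to 4 without WT pDC array 1 or WT pDC array 2. In cKO cells, the count for cDC1 against cDC2 went from 8 to 3 without cKO cDC1 array 3, to 4 without cKO cDC1 array 4 and to 5 without cKO cDC2 array 1 or cKO cDC2 array 2, and that for pDC against cDC2 went from 10 to 16 without cKO pDC array 3. Same-numbered WT arrays deviated together. With the array number as a block the WT counts were 11 (pDC and cDC1), 17 (pDC and cDC2) and 20 (cDC1 and cDC2), and held every call made without the block. Of all genes, 25%, 23.6% and 12% were then called. The WT arrays numbered 1, 2 and 3 are those of sets A, B and C in every cell type. In WT the block is therefore the same split of arrays as the processing set, and pairing cannot be told apart from it.

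Among the sensors and transcription factors, Xbp1 separated pDC from the conventional cells. Xbp1, made active when IRE1 splices its mRNA, drives genes of ER folding and secretion. In WT it stood at 10.75, 9.12 and 11.50 in pDC, at 9.24, 9.11 and 9.87 in cDC1 and at 8.83, 8.45 and 9.58 in cDC2 (log2 intensity, arrays 1 to 3). In cKO it stood at 10.60, 10.65, 10.16, 11.65 and 11.13 in pDC, at 9.29, 9.35, 9.83 and 9.79 in cDC1 and at 8.50, 8.76, 8.31, 9.11 and 9.16 in cDC2. All 5 cKO pDC arrays lay above all cKO arrays of the other cell types, whereas WT pDC array 2, of set B, lay among the conventional cells.

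The difference of Xbp1 between pDC and cDC2 was 2.07 ± 0.35 (SE) in cKO, a 4.21-fold difference (limma adjusted p = 7.58e-05), and 1.5 ± 0.45 in WT (2.82-fold, adjusted p = 0.0269). Between pDC and cDC1 it was 1.27 ± 0.37 in cKO (adjusted p = 0.0146) and 1.05 ± 0.45 in WT, which did not pass (adjusted p = 0.147). With the array number as a block, the WT difference from cDC1 passed (adjusted p = 0.0333), as it did without WT pDC array 2 (1.72, adjusted p = 0.00404). Within sets A, B and C, the WT difference of pDC from cDC1 was 1.5, 0.01 and 1.63, and that from cDC2 was 1.91, 0.66 and 1.92. The WT call against cDC2 was lost without WT cDC2 array 1 (1.44, adjusted p = 0.090), WT cDC2 array 2 (1.25, 0.127), WT pDC array 1 (1.35, 0.0984) or WT pDC array 3 (0.97, 0.183), and without the 3 WT arrays of high Xist together (1.29, 0.256). Leaving out those 3 arrays also ended the WT calls against cDC2 of Creld2 (adjusted p of 0.205 in pDC and 0.192 in cDC1), Dnajc3 (0.0811 and 0.137), Dnajb9 in pDC (0.207), and Pdia6 (0.117) and Hsp90b1 (0.113) in cDC1. The probe set covers the gene and does not part spliced from unspliced Xbp1 mRNA.

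Plasma cells also hold much Xbp1, so their markers were read on the same arrays. Without Xbp1, the 6 other plasma cell markers tested of the 8 listed summed to 778 to 1429 intensity units on WT pDC arrays, 183 to 303 on WT cDC1 and 236 to 340 on WT cDC2, and to 918 to 1530, 193 to 350 and 255 to 341 on the cKO arrays. This sum was carried by Jchain and Mzb1, and Prdm1, which drives plasma cell fate, was near background in pDC (5.01 in WT, 4.56 in cKO). These 2 genes ran differently over the WT pDC arrays. Jchain was highest on array 2 (9.82), where Xbp1 was lowest, and lowest on array 3 (5.71), where Xbp1 was highest. Mzb1 had the same order as Xbp1, at 8.56, 8.37 and 9.18 on arrays 1 to 3. The 6 B cell markers tested summed to 372 to 585 on WT pDC arrays, 223 to 509 on WT cDC1 and 170 to 272 on WT cDC2, and to 333 to 750, 161 to 302 and 122 to 229 on the cKO arrays. In this sum the pDC arrays overlapped those of cDC1 in WT and lay above all others in cKO. Ms4a1 was at 7.17, 6.93 and 8.45 on WT cDC1 arrays and at 5.49, 7.62 and 6.80 on WT pDC arrays. Gene by gene, 4 of the 6 were called higher in WT pDC than in WT cDC1, all without overlap, and none lower. Of all genes, 5.14% were called higher there and 8.37% lower. The part of other cells in the Xbp1 difference was not tested beyond these values.

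The other sensors were more even. Ern1, the kinase and nuclease that splices Xbp1, was higher in cKO pDC than in cKO cDC1 by 0.98 ± 0.31 (adjusted p = 0.0258). Its levels overlapped, at 8.83, 8.98, 7.49, 9.48 and 8.80 in pDC and 7.86, 7.17, 7.89 and 8.01 in cDC1, and the call was lost without cKO cDC1 array 2 or cKO pDC arrays 1, 2 or 4 (adjusted p up to 0.107). In WT the difference was 0.67 ± 0.38 (adjusted p = 0.325; 0.0418 with the block). Ddit3 (CHOP), a factor induced late in ER stress that promotes cell death, was at 8.41, 7.69, 8.93, 8.65 and 9.63 in cKO pDC, at 6.95, 6.88, 7.26, 7.53 and 7.63 in cKO cDC2 and at 7.45, 7.78, 7.38 and 7.52 in cKO cDC1.

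Every cKO pDC array was above every cKO cDC2 array in Ddit3, while pDC and cDC1 overlapped by pDC array 2. The difference was 1.41 ± 0.32 from cDC2 (adjusted p = 0.00189) and 1.13 ± 0.34 from cDC1 (adjusted p = 0.0184, lost without cKO cDC1 array 3 or cKO pDC array 5, adjusted p up to 0.0542). In WT, where Ddit3 stood at 8.72, 8.33 and 9.72 in pDC, 7.75, 8.69 and 8.62 in cDC2 and 7.23, 8.51 and 8.05 in cDC1, the difference of 0.57 ± 0.41 from cDC2 did not pass (adjusted p = 0.501), nor did that of 0.99 ± 0.41 from cDC1 (0.131). The WT cell types overlapped, and in set B the WT pDC array was below both others.

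Eif2ak3, the kinase that slows translation in ER stress, was above all cKO cDC2 arrays on all cKO pDC arrays but just missed the threshold there (0.73 ± 0.26, adjusted p = 0.0507). Its remaining differences between cell types lay from -0.08 to 0.41 and none passed. Atf4, the factor made when translation is slowed, differed by 0.00 to 0.28 between any 2 cell types of 1 genotype, with SE of 0.30 to 0.39. Atf6, the sensor that is cut in the Golgi to become a transcription factor, differed by -0.20 to 0.27, with SE of 0.32 to 0.41.

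**Figure D2:**
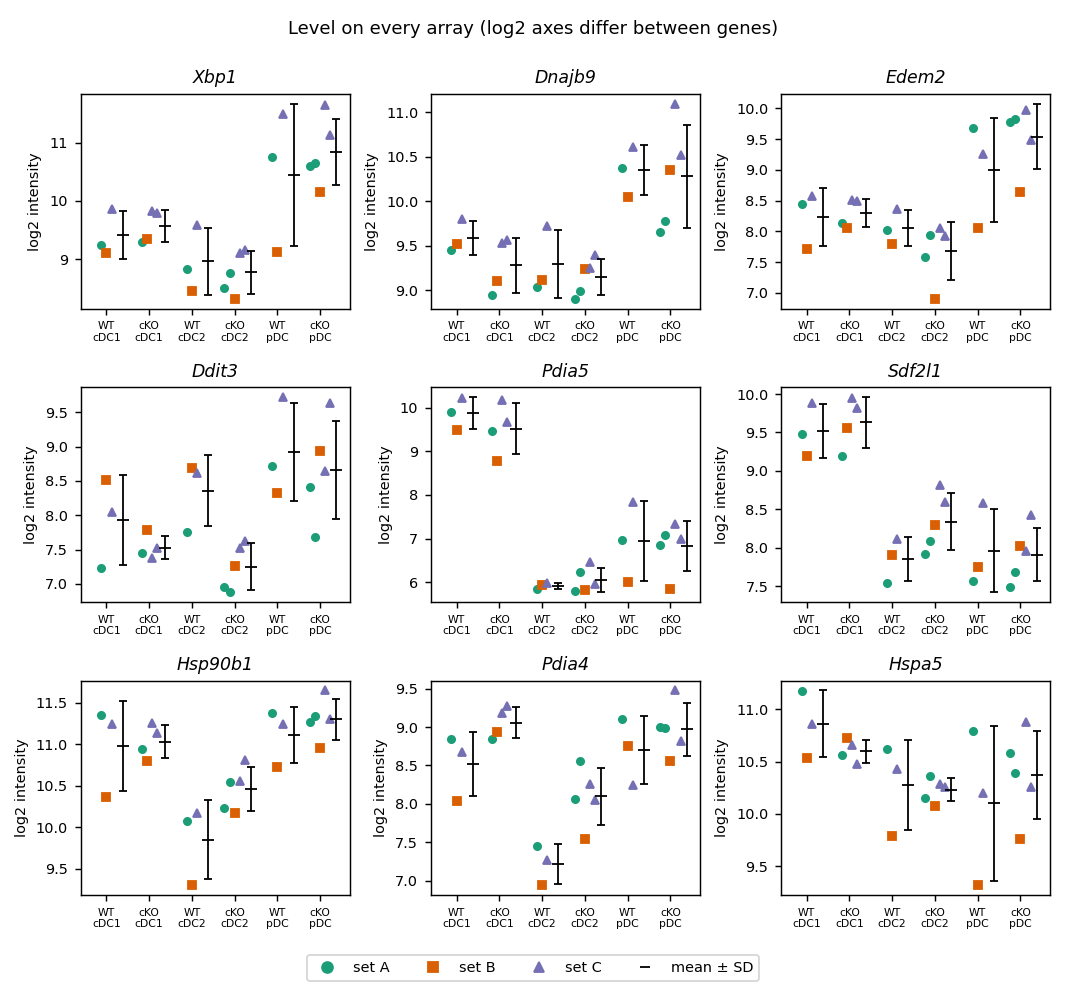
Level of 9 members on each of the 23 arrays (log2 intensity, axes differ between genes), with the colour and shape of a point giving its processing set and black bars giving each group's mean ± SD. The cDC1 arrays lie above all others for Pdia5 and Sdf2l1, and the cKO pDC arrays lie above the other cKO arrays for Xbp1.

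Of the 4 measured proteins of the signal recognition particle, which halts translation and docks the ribosome at the ER, none was called between any cell types without the block. Srp9 and Srp14, which bind the Alu end of the particle's RNA, and Srp68 and Srp72, which bind its other end, differed by -0.51 to 0.61 over the 6 comparisons. Srp9 has a second probe set that gave 0.26 for pDC minus cDC1 in WT, where the one used gave -0.09. With the block, Srp9 was higher than in cDC2 in WT pDC (0.52, adjusted p = 0.0367) and WT cDC1 (0.61, 0.032).

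Of the 11 measured genes of the translocon, its accessory proteins and signal peptidase, 1 was called without the block. Spcs2, a subunit of signal peptidase, was higher in pDC than in cDC2 by 1.52 ± 0.40 in WT (adjusted p = 0.0105) and by 1.03 ± 0.31 in cKO (adjusted p = 0.017). In WT its levels were 9.70, 10.79 and 10.80 in pDC, 8.45, 9.03 and 9.26 in cDC2 and 9.24, 9.76 and 10.06 in cDC1. The WT pDC arrays were all above the WT cDC2 arrays, while the cKO arrays, at 9.70 to 10.88 in pDC and 8.37 to 9.78 in cDC2, overlapped.

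The Spcs2 call in WT was lost without WT cDC2 array 1, WT pDC array 2 or WT pDC array 3 (adjusted p up to 0.0723), and that in cKO without cKO cDC2 arrays 1 or 2 or cKO pDC array 5 (up to 0.0631). Array weights ended both calls (1.36, adjusted p = 0.0518 in WT, and 0.57, 0.0991 in cKO). Sec61a1, the channel itself, was at 0.53 for pDC minus cDC2 in WT and at 0.78 in cKO (adjusted p of 0.499 and 0.0665). All 11 lay above 0 for pDC minus cDC2 in cKO and 10 of 11 in WT, with medians of 0.35 and 0.50. For cDC1 minus cDC2, 10 of 11 lay above 0 in each genotype, with medians of 0.52 in WT and 0.28 in cKO. Over all genes, the median was -0.02 for pDC minus cDC2 and 0.04 for cDC1 minus cDC2 in each genotype. The share of all genes above 0 in both genotypes at once was 37.4% and 42.8%. That is a stricter measure than the counts within 1 genotype. The 11 genes were read on the same arrays and are not independent of each other. With the array number as a block, 9 more WT differences of 6 of these genes passed. Calls rose over all genes too, where the block called 23.6% for pDC and cDC2, 12% for cDC1 and cDC2 and 25% for pDC and cDC1. Against cDC2, Sec61b (0.65, adjusted p = 0.0147), Sec63 (0.60, 0.024) and Spcs3 (0.56, 0.0192) were then higher in pDC, and Sec63 (0.89, 0.00696), Spcs3 (0.81, 0.00602), Spcs2 (0.77, 0.0152), Ssr3 (0.74, 0.0435) and Ssr4 (0.64, 0.0267) in cDC1. Spcs2 was then also higher in pDC than in cDC1 (0.75, 0.00997).

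Among the 11 chaperones and cochaperones, 5 were higher in WT pDC than in WT cDC2 (Hsp90b1, Manf, Dnajc3, Dnajb9 and Creld2), and 4 were higher in WT cDC1 than in WT cDC2 (Sdf2l1, Hsp90b1, Dnajc3 and Creld2). All 11 lay above 0 for cDC1 minus cDC2 in WT, with a median of 0.71, against 0.04 over all genes. Sdf2l1, a partner of ER chaperone complexes that responds to ER stress, was at 9.48, 9.19 and 9.89 in WT cDC1, 7.54, 7.91 and 8.11 in WT cDC2 and 7.56, 7.75 and 8.58 in WT pDC. In cKO it was at 9.19, 9.56, 9.95 and 9.82 in cDC1, 7.92, 8.09, 8.29, 8.82 and 8.60 in cDC2 and 7.49, 7.68, 8.02, 7.95 and 8.42 in pDC. Within each genotype all cDC1 arrays stood above all cDC2 and pDC arrays.

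Sdf2l1 was 3.17-fold higher in cDC1 than in cDC2 in WT (1.67 ± 0.30, adjusted p = 0.000634) and 2.44-fold in cKO (1.29 ± 0.25, adjusted p = 0.000896). It was lower in pDC than in cDC1, with differences of -1.55 ± 0.30 in WT (adjusted p = 0.000662) and -1.72 ± 0.25 in cKO (adjusted p = 1.21e-05). Within sets A, B and C the WT difference of cDC1 from cDC2 was 1.94, 1.28 and 1.78. Under all alternatives tried and with any 1 array left out, these 4 calls of Sdf2l1 remained.

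Hsp90b1 (GRP94), the ER member of the HSP90 family, which folds Toll-like receptors and integrins, ranked differently. In WT it was at 11.37, 10.72 and 11.24 in pDC, 11.35, 10.36 and 11.24 in cDC1 and 10.07, 9.30 and 10.17 in cDC2. The cDC2 arrays were below all WT arrays of the other cell types. The difference from cDC2 was 1.26 ± 0.28 for pDC (2.40-fold, adjusted p = 0.00256) and 1.14 ± 0.28 for cDC1 (2.20-fold, adjusted p = 0.0116, lost without WT cDC1 arrays 1 or 3 or WT cDC2 array 2, adjusted p up to 0.106).

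In cKO, Hsp90b1 was at 11.27, 11.34, 10.95, 11.65 and 11.30 in pDC and at 10.23, 10.54, 10.17, 10.56 and 10.81 in cDC2, with no overlap and a difference of 0.84 ± 0.22 (adjusted p = 0.00573). The cKO cDC1 arrays ran from 10.80 to 11.25 and were not called above cDC2. Manf, a secreted protein that is kept in the ER by Hspa5 until calcium falls, was higher in pDC than in cDC2 by 1.18 ± 0.26 in WT (adjusted p = 0.00273) and by 0.88 ± 0.20 in cKO (adjusted p = 0.00233). Its WT arrays ran from 8.84 to 9.38 in pDC and from 7.64 to 8.15 in cDC2, apart from each other, and cDC1 lay between at 8.48 to 9.03.

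Dnajb9 (ERdj4), a cochaperone of Hspa5 that holds IRE1 in check and a known target of Xbp1, was at 10.37, 10.05 and 10.61 in WT pDC, above all WT cDC1 (9.45 to 9.80) and WT cDC2 arrays (9.04 to 9.72). The difference from cDC2 was 1.06 ± 0.30 in WT (adjusted p = 0.0188) and 1.12 ± 0.23 in cKO (adjusted p = 0.000797), and that from cDC1 was 0.99 ± 0.25 in cKO (adjusted p = 0.00454). The WT call was lost without WT cDC2 arrays 1 or 2 or WT pDC arrays 1 or 3 (adjusted p up to 0.0969), while both cKO calls remained without any 1 array.

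Creld2 and Dnajc3 were higher in both pDC and cDC1 than in cDC2. Creld2, an ER protein with disulfide isomerase activity that is induced by ER stress, ran from 8.63 to 9.87 in WT cDC1, from 8.23 to 9.85 in WT pDC and from 7.43 to 8.09 in WT cDC2. The difference from cDC2 was 1.51 ± 0.41 for cDC1 (adjusted p = 0.0253) and 1.27 ± 0.41 for pDC (adjusted p = 0.0421) in WT, and 1.34 ± 0.34 (0.0103) and 1.05 ± 0.32 (0.0191) in cKO. Dnajc3 (p58IPK), a cochaperone that inhibits eIF2 kinases, differed from cDC2 by 1.21 ± 0.32 in WT cDC1 (adjusted p = 0.0214), 1.16 ± 0.32 in WT pDC (0.0158) and 0.99 ± 0.26 in cKO cDC1 (0.0164).

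The Creld2 call of WT cDC1 was lost without WT cDC1 arrays 1 or 3 or WT cDC2 arrays 1 or 2 (adjusted p up to 0.17), and that of cKO cDC1 without cKO cDC1 array 3 (0.0555). For pDC the Creld2 call was lost in WT without WT cDC1 array 1, WT cDC2 arrays 1 or 2, WT pDC arrays 1 or 3 or cKO pDC array 1 (adjusted p up to 0.229) and with no filter on dim probe sets (0.0663), and in cKO without cKO cDC2 arrays 1 or 3 or cKO pDC arrays 4 or 5 (up to 0.0584). The Dnajc3 calls were lost without WT cDC1 arrays 1 or 3 or WT cDC2 arrays 1 or 2 for WT cDC1 (adjusted p up to 0.135), WT cDC2 array 2 or WT pDC array 3 for WT pDC (0.104), and cKO cDC1 arrays 3 or 4 or cKO cDC2 arrays 1 or 2 for cKO cDC1 (0.0773).

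Dnajb11 (ERdj3), which hands unfolded proteins to Hspa5, was called in cKO cells, higher than in cDC2 by 0.55 ± 0.16 in pDC (adjusted p = 0.0131) and by 0.57 ± 0.17 in cDC1 (adjusted p = 0.0343). The cDC1 call was lost without cKO cDC1 arrays 3 or 4 or cKO cDC2 arrays 1, 2 or 3 (adjusted p up to 0.151), and without the 3 WT arrays of high Xist (0.0571). Its cKO arrays ran from 7.09 to 7.69 in pDC, 7.14 to 7.62 in cDC1 and 6.56 to 7.05 in cDC2, and cDC2 overlapped neither. Hspa5 (BiP), the most central ER chaperone and the usual measure of the unfolded protein response, was called in none of the 6 comparisons without the block.

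The level of Hspa5 in WT was 11.17, 10.53 and 10.86 in cDC1, 10.62, 9.79 and 10.43 in cDC2 and 10.79, 9.32 and 10.20 in pDC. In cKO it ran from 10.48 to 10.72 in cDC1, 10.08 to 10.36 in cDC2 and 9.76 to 10.88 in pDC. Its WT difference of pDC from cDC1 was -0.75 ± 0.30 (adjusted p = 0.12), and this passed with the array number as a block (adjusted p = 0.0174). Among the WT arrays the cDC1 array was the highest in every set, and WT pDC array 2 was the lowest of all 23 arrays. On that array the tissue handling genes tested (8 of 9 listed, such as Fos, Dusp1 and Hspa1a) summed to 3240 intensity units, also the lowest of all arrays, against 10300 and 17200 on the other WT pDC arrays and 15500 to 26700 on the conventional WT arrays, and their part in the difference was not tested. Calr and Canx, the lectin chaperones of glycoproteins, and Hyou1, a nucleotide exchange factor for Hspa5, were called nowhere without the block. With it, Calr was higher in WT cDC1 than in WT cDC2 (0.71, adjusted p = 0.0287) and lower in WT pDC than in WT cDC1 (-0.66, 0.0222). Dnajb11 then passed in WT against cDC2 (0.61 in pDC, 0.0215, and 0.64 in cDC1, 0.0293), as did Manf in cDC1 (0.84, 0.00433), and Dnajb9 was higher in WT pDC than in WT cDC1 (0.75, 0.00882).

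**Figure D3:**
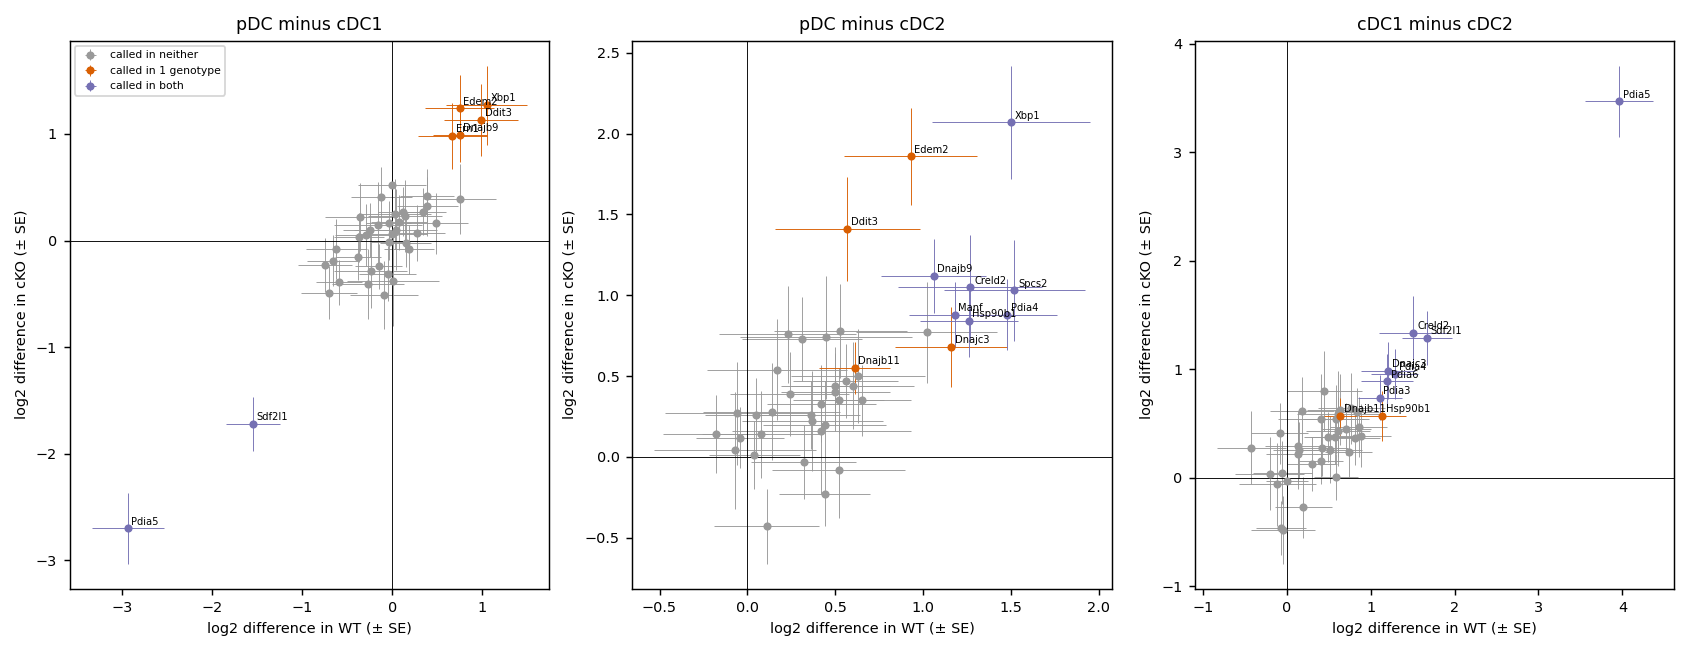
Difference between cell types in WT (horizontal axis) and in cKO (vertical axis) for the 42 members, 1 panel per pair of cell types, in log2 units with bars of ± 1 SE. Pdia5 lies far from the other members in both panels that hold cDC1, Sdf2l1 does so for pDC minus cDC1, and Xbp1 and Edem2 lie highest for pDC minus cDC2 in cKO.

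Disulfide isomerases form and reshuffle the cysteine bridges of new proteins, and 4 of the 5 were higher in cDC1 than in cDC2 in each genotype. Pdia5 had the largest difference of any member. In WT it was at 9.91, 9.48 and 10.23 in cDC1, 5.84, 5.93 and 5.98 in cDC2 and 6.97, 6.0 and 7.84 in pDC. In cKO it was at 9.47, 8.78, 10.17 and 9.66 in cDC1, from 5.80 to 6.45 in cDC2 and from 5.84 to 7.33 in pDC. The lowest cDC1 array was above the highest array of the other cell types, and cDC2 and pDC overlapped in cKO.

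Pdia5 was 15.5-fold higher in cDC1 than in cDC2 in WT (3.96 ± 0.40, adjusted p = 2.71e-07) and 11.1-fold in cKO (3.47 ± 0.33, adjusted p = 6.15e-08). From cDC1 to pDC it was lower, with -2.94 ± 0.40 in WT (adjusted p = 7.73e-06) and -2.70 ± 0.33 in cKO (adjusted p = 1.02e-06). Over all alternatives and with any 1 array left out, the WT difference of cDC1 from cDC2 stayed between 3.78 and 4.15. Within sets A, B and C it was 4.07, 3.55 and 4.25. Cell type accounted for 91.7% of the variance of Pdia5 and 80.5% of that of Sdf2l1 over the 23 arrays, against a median of 28.5% over the members and 20.9% over all genes.

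Pdia4 (ERp72) was higher than in cDC2 in both other cell types. In WT it was at 9.11, 8.76 and 8.24 in pDC, 8.84, 8.04 and 8.67 in cDC1 and 7.45, 6.94 and 7.27 in cDC2, with cDC2 below all others. The difference from cDC2 was 1.48 ± 0.28 for pDC (2.79-fold, adjusted p = 0.000594) and 1.29 ± 0.28 for cDC1 (2.45-fold, adjusted p = 0.00438), and in cKO 0.88 ± 0.22 (0.00471) and 0.96 ± 0.23 (0.00776). A second, dim probe set of Pdia4, above the array median on 6 of 23 arrays, gave 0.50 for pDC and 0.01 for cDC1 in WT, and when both probe sets were averaged the cDC1 call in WT was lost (0.65, adjusted p = 0.235).

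Pdia3 (ERp57), an isomerase that also serves in the loading of MHC class I molecules, was higher in cDC1 than in cDC2 by 1.11 ± 0.26 in WT (adjusted p = 0.00737, lost without WT cDC1 array 1 or WT cDC2 array 2, up to 0.0675) and by 0.74 ± 0.21 in cKO (adjusted p = 0.0279, lost without cKO cDC1 arrays 2, 3 or 4 or cKO cDC2 arrays 3, 4 or 5, up to 0.105, and under quantile normalization, 0.61 and 0.137). Its WT arrays ran from 10.25 to 10.80 in cDC1 and 8.95 to 9.89 in cDC2. Pdia6, which also trims the signal of IRE1, was higher in cDC1 than in cDC2 by 1.20 ± 0.31 in WT (adjusted p = 0.0155) and 0.89 ± 0.25 in cKO (adjusted p = 0.0249), calls that were lost without WT cDC1 array 3 or WT cDC2 arrays 1 or 3 (up to 0.0863) and without cKO cDC1 arrays 2, 3 or 4 or cKO cDC2 arrays 1 or 2 (up to 0.0872). P4hb, the founding member of the family, was at 0.86 in WT and 0.47 in cKO and did not pass (adjusted p of 0.183 and 0.449). With the block, P4hb passed in WT against cDC2 (adjusted p = 0.0134) and was lower in pDC than in cDC1 (-0.62, 0.0304), Pdia3 was lower in WT pDC than in cDC1 (-0.59, 0.0208) and higher than in cDC2 (0.52, 0.0373), and Pdia5 was higher in WT pDC than in cDC2 (1.02, 0.0333).

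Among the 5 genes of ER-associated degradation, Edem2, a mannosidase that marks misfolded glycoproteins for removal, was called. In cKO it was at 9.77, 9.83, 8.64, 9.97 and 9.49 in pDC, 8.14, 8.06, 8.51 and 8.49 in cDC1 and 7.59, 7.94, 6.90, 8.05 and 7.92 in cDC2, with every pDC array above every other. The difference was 1.86 ± 0.30 from cDC2 (3.64-fold, adjusted p = 3.97e-05) and 1.24 ± 0.31 from cDC1 (adjusted p = 0.00542), and both calls remained without any 1 array. In WT, at 9.68, 8.05 and 9.26, the pDC arrays 1 and 3 were above all others while array 2 was not, and neither difference passed without the block. With it, Edem2 was higher in WT pDC than in cDC2 (0.93, adjusted p = 0.0225) and cDC1 (0.75, 0.0498). Edem1, Sel1l, Syvn1 and Herpud1, which extract and tag misfolded proteins, differed by -0.46 to 0.74 over the 6 comparisons and none was called without the block. With it, Syvn1 was higher than in cDC2 in WT cDC1 (0.61, adjusted p = 0.0209) and WT pDC (0.45, 0.0423), and Sel1l in WT cDC1 (0.59, 0.0415).

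Promoters of the members were read to show the sequence elements known from this pathway. The ER stress response element (ERSE), to which Atf6 and Xbp1 bind together with NF-Y, was searched as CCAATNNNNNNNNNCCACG and ERSE-II as ATTGGNCCACG, on both strands, from 250 bases before to 50 after the start of each gene (RefSeq, GRCm38.p6). Of the 37 members with a promoter in that table, 8 held ERSE (21.6%), against 0.119% of all 32851 promoters. ERSE-II was held by Herpud1 and Dnajb11 (5.41%), against 0.0365%. The shorter CCACG and CCAAT, which lie within both elements, were each held by 26 members (70.3%), against 32.8% and 37.4% of all promoters, and TGACGTGG by none of 37, against 0.676%. The members were listed for their place in this pathway, so their share of ERSE is a description of the list. Atf6, Hyou1, Manf, Sec61a1, Spcs3, Srp68 and Ssr2 had no promoter there.

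The elements that lie upstream of the start are shown for the called members and for Hspa5 and Herpud1, with CCAAT and CCACG or their reverse complements in capitals and 20 bases on either side, read 5′ to 3′ on the gene's strand. Hspa5 (chr2:34772005-34772063, plus strand), Hsp90b1 (chr10:86705618-86705676 and chr10:86705513-86705571, minus strand), Pdia6 (chr12:17266471-17266529, plus), Dnajc3 (chr14:118937807-118937865, plus), Creld2 (chr15:88819500-88819558, plus) and Herpud1 with ERSE-II (chr8:94386357-94386407, plus) are shown. The ERSE-II of Dnajb11 lies after the start, from base 7 to base 17, and is not shown.
Hspa5: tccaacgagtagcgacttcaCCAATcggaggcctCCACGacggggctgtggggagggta
Hsp90b1, distal: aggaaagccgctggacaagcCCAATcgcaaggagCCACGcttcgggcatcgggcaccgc
Hsp90b1, proximal: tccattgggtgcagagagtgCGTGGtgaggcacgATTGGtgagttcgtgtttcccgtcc
Pdia6: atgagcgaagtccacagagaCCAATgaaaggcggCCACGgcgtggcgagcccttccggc
Dnajc3: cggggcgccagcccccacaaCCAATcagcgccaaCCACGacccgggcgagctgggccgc
Creld2: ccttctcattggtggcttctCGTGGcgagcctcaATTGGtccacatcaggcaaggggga
Herpud1: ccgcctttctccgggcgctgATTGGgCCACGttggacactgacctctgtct

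Calr, Canx and Syvn1 hold ERSE too and, like Hspa5, were called nowhere without the block. Of the 8 members with ERSE, 4 were called higher in cDC1 than in cDC2 in WT (median 0.92) and 3 higher in pDC than in cDC2 (median 0.48), and of the 25 matched members with neither element 4 and 4 were (medians 0.45 and 0.44). Pdia5 and Sdf2l1, with the largest differences, hold neither element. Their 250 bases before the start are shown, Pdia5 from chr16:35490874-35491123 and Sdf2l1 from chr16:17132384-17132633, both on the minus strand, with every CCACG and CCAAT of either strand in capitals.
Pdia5: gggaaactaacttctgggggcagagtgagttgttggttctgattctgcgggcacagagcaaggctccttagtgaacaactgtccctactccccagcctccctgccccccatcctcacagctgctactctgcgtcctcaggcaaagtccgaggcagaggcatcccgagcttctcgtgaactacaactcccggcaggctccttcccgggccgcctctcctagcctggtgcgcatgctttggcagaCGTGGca
Sdf2l1: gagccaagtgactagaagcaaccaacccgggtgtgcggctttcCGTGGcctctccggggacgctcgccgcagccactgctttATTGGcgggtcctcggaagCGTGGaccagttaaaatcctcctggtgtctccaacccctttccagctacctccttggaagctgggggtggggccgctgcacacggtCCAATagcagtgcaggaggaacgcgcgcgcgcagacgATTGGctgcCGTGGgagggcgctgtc
Pdia5 has 1 CCACG and no CCAAT in this window, and Sdf2l1 has 3 of each at other spacings than in ERSE.

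No member was called between the Bcl6 genotypes in any cell type. By limma at an adjusted p below 0.05, 0 of 42 were called in cDC1, cDC2 and pDC, where 0.831%, 1.56% and 0.0329% of all genes were. At an unadjusted p below 0.05 there were 0, 4 and 0 members, and 3.28%, 6.5% and 1.99% of all genes. The median member differed by 0.01, 0.15 and 0.12 (cKO minus WT, log2), against 0.06, 0.07 and 0.05 over all genes. The members' differences ran from -0.47 to 0.54 in cDC1, from -1.11 to 0.88 in cDC2 and from -0.37 to 0.55 in pDC. In cDC1, where same-numbered arrays deviated together, the block gave 0 calls too.

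The smallest p-values were in cDC2. Pdia4 was at 8.07, 8.56, 7.54, 8.26 and 8.05 in cKO cDC2 and at 7.45, 6.94 and 7.27 in WT cDC2, without overlap, and the difference of 0.88 ± 0.25 did not pass (adjusted p = 0.112). Ddit3, at 6.95, 6.88, 7.26, 7.53 and 7.63 in cKO and 7.75, 8.69 and 8.62 in WT, did not overlap either and differed by -1.11 ± 0.37 (adjusted p = 0.226). Hsp90b1 differed by 0.62 ± 0.25 (adjusted p = 0.495), with the highest WT array at 10.17 and the lowest cKO array at 10.17.

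With the processing set as a term, Pdia4 (0.82, adjusted p = 0.0159), Ddit3 (-1.08, 0.0214) and Hsp90b1 (0.54, 0.0277) passed, where 3.04% of all genes were higher and 1.56% lower. The sets were defined from these arrays after seeing the data. Within sets A, B and C, Pdia4 differed by 0.86, 0.60 and 0.88 and Ddit3 by -0.84, -1.43 and -1.04. Without cKO cDC2 array 3, the count in cDC2 went from 0 to 1. On the cKO cDC2 arrays the 5 T and NK cell markers tested of 6 listed summed to 551 to 921 intensity units, against 381 to 530 on WT cDC2 arrays, and their part in these differences was not tested.

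In cDC1, the smallest p-values belonged to Pdia4 (0.54 ± 0.26), P4hb (-0.47 ± 0.31) and Dnajb9 (-0.31 ± 0.28), each with an adjusted p of 1. In pDC they belonged to Edem2 (0.55 ± 0.34), Calr (0.35 ± 0.26) and Sec61a1 (0.41 ± 0.34), again with an adjusted p of 1. Xbp1 differed by 0.16 in cDC1, -0.19 in cDC2 and 0.39 in pDC, and Hspa5 by -0.25, -0.05 and 0.27, none of which passed.

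The genotype effect was also compared between cell types, and by limma 0 of 42 members were called in any of the 3 comparisons (0.28%, 0.329% and 0.485% of all genes were), with 0 at an unadjusted p below 0.05 in each, where 3.27%, 2.39% and 3.78% of all genes were. Between cDC2 and pDC, the smallest p-values belonged to Sel1l (0.67 ± 0.32) and Edem2 (-0.93 ± 0.48). Between cDC1 and cDC2 they belonged to Sel1l (-0.57 ± 0.33) and Hsp90b1 (-0.57 ± 0.36), and between cDC1 and pDC to Hspa5 (-0.52 ± 0.39) and Calr (-0.47 ± 0.38). All had an adjusted p of 1.

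**Figure D4:**
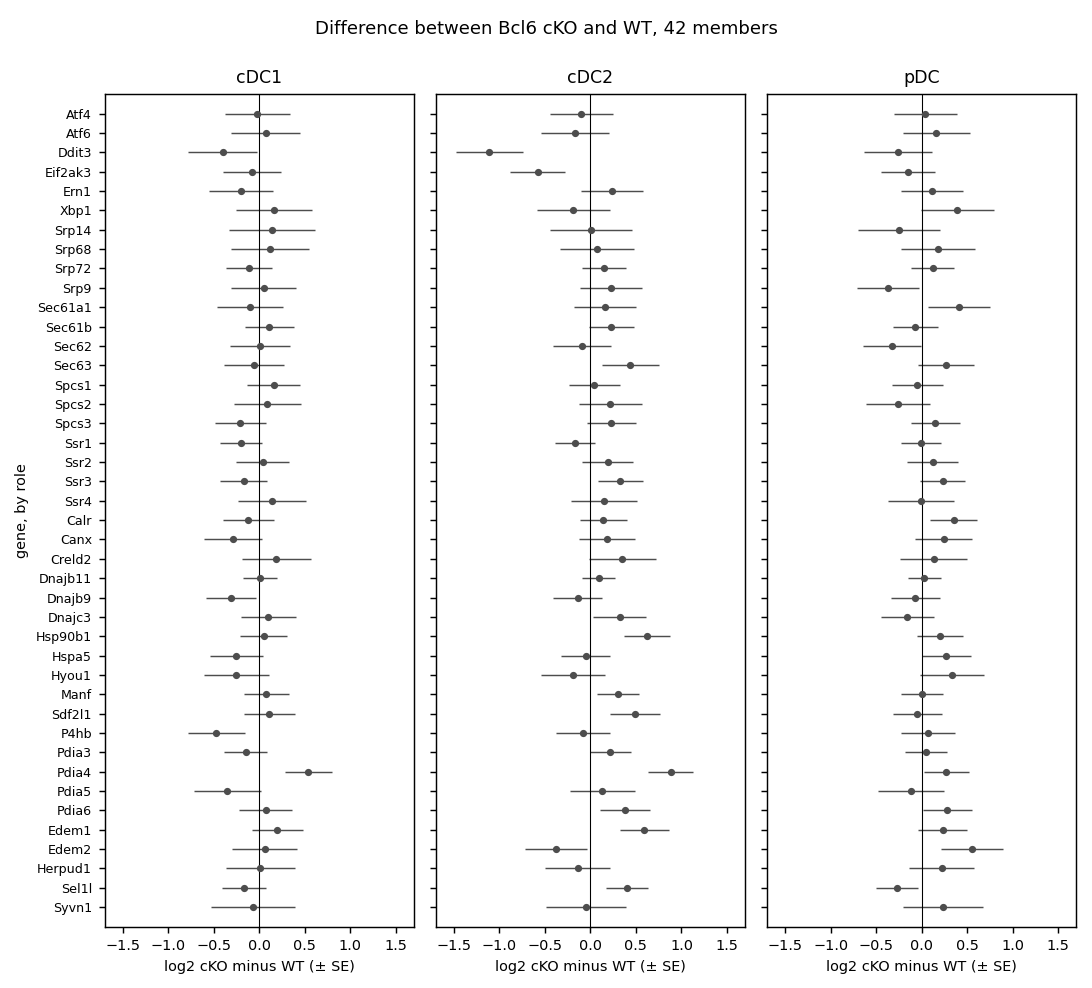
Difference between cKO and WT for the 42 members (rows, by role) in cDC1, cDC2 and pDC (panels), in log2 units with bars of ± 1 SE. The members lie around 0 in all 3 panels, and the farthest are Ddit3 (-1.11) and Pdia4 (0.88) in cDC2.

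Of 99 further genes of the pathway listed, 90 were tested. In WT, pDC against cDC2 gave 11 higher and 3 lower, cDC1 gave 4 higher and 1 lower relative to cDC2, and 5 were higher and 5 lower in pDC than in cDC1. Of all genes tested, 4.8% were higher and 7.93% lower in the first of these comparisons, 3.02% and 3.04% in the second and 5.14% and 8.37% in the last. As shares of 90, the counts for cDC1 against cDC2 and for pDC against cDC1 are near those of all genes. None was called between genotypes. The median of the 90 was 0.20, 0.30 and -0.08 in these comparisons, and the COPI coat and KDEL receptors, which return proteins from the Golgi, had 0 of 10 called in any, with medians of 0.06, 0.17 and -0.13.

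Genes of ER export and translocation were among those higher in pDC. Sec24d, a cargo adaptor of the COPII coat, was higher in WT pDC than in cDC2 by 2.22 ± 0.30 (adjusted p = 9.2e-06) and than in cDC1 by 1.25 ± 0.30 (0.00502), and in cKO by 2.09 ± 0.23 and 1.26 ± 0.25. Its WT levels were 6.93 to 7.82 in pDC, 5.88 to 6.61 in cDC1 and 5.12 to 5.58 in cDC2, with no overlap. Tram2, a translocon partner, was higher in pDC than in cDC2 by 1.56 ± 0.29 in WT (adjusted p = 0.000402) and 1.82 ± 0.22 in cKO (1.13e-06), and Sec11c, the catalytic subunit beside Spcs2 in signal peptidase, by 1.17 ± 0.34 in WT (0.0228). Fkbp2, a prolyl isomerase of the ER, was higher in WT pDC than in WT cDC2 by 1.10 (adjusted p = 0.0107), and Tmed2, a cargo receptor of transport vesicles, by 0.95 (0.0327). Preb, which loads the COPII GTPase, was lower in pDC than in cDC1 by -1.40 ± 0.40 in WT (adjusted p = 0.0198).

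For folding and degradation, Selenos, which anchors the retrotranslocation machinery, was higher than in cDC2 in WT pDC (1.45 ± 0.25, adjusted p = 0.000162) and WT cDC1 (1.37 ± 0.25, 0.000595). Ero1b, the oxidase that recharges the disulfide isomerases, was higher than in cDC2 in WT cDC1 (1.16 ± 0.23, adjusted p = 0.00151) and WT pDC (0.96 ± 0.23, 0.00492). Derl2, a channel component of degradation, was higher in cDC1 than in cDC2 (1.12 ± 0.29, adjusted p = 0.0168), and so was Man1b1, a mannosidase (1.28 ± 0.37, 0.0401). Txndc5, a thioredoxin-type isomerase, was higher in pDC than in cDC2 (1.40 ± 0.40, adjusted p = 0.0209). Of the oligosaccharyltransferase, which attaches glycans, Stt3b was higher (0.97 ± 0.28, 0.0193) and Rpn1 lower (-1.0 ± 0.33, 0.0449) in WT pDC than in cDC1.

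The genes of the stress response did not move one way. Wfs1, an ER membrane protein that restrains Atf6, was higher in WT pDC than in cDC2 (2.25 ± 0.33, adjusted p = 2.51e-05) and cDC1 (2.0 ± 0.33, 9.56e-05), with pDC at 7.86 to 8.81 and the others at 5.88 to 6.40. Asns, asparagine synthetase and a target of Atf4, was at 6.47 to 8.27 in WT cDC2 and at 3.85 to 4.81 in the other WT cells, with every WT pDC and WT cDC1 array below its array median. It was at least 5.34-fold lower in WT pDC (adjusted p = 1.8e-05) and at least 5.49-fold lower in WT cDC1 (6.68e-05) than in WT cDC2, where the array median stands in for each level below it. Atf3, a stress factor that also rises with tissue handling, was lower in WT pDC than in cDC1 (-2.03 ± 0.49, 0.00527) and cDC2 (-1.75 ± 0.49, 0.0176).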

How the data were processed

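RNA of sorted splenic dendritic cells was hybridised to 23 Affymetrix mouse gene arrays, 1 population per array. Single cells were freed from spleen with collagenase B plus DNase I and cleared of red cells before sorting, and a pico-scale kit turned column-purified RNA into biotinylated cDNA, per the labels' protocols. The deposited values are linear gene-level intensities, made by the authors with Affymetrix Expression Console and RMA per the submitters' processing notes, which give no versions. As array medians differed, the values do not share 1 distribution, and the 3 processing sets were taken from those medians.

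The intensities were put on the log2 scale. A gene was tested if a probe set naming it alone exceeded the median of the array on 3 or more arrays, with the brightest such probe set standing for it. Limma 3.58.1 (R 4.3.3) fitted 6 group means with 17 residual degrees of freedom, and p-values were adjusted by Benjamini-Hochberg over 12157 genes. A gene was called at an adjusted p below 0.05, and every adjusted p in the text is limma's. Tests were checked on simulated data with independent noise on each array. That check had no processing sets and no arrays that deviate together, so it does not cover these features of the data. Precision is limited by how few arrays there are.

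The members and lists were chosen with earlier results of these data known. Named with values were the sensors and Hspa5, up to 10 called members of largest difference per cell-type comparison, those of smallest p where none was called between genotypes, and up to 3 called genes of each further pathway list. Markers named beside a result and promoter elements are descriptions.

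Array numbers were taken to pair samples where every pair's deviations correlated above 0.1. They did between WT cell types (9 pairs, 0.38 to 0.70) and between genotypes in cDC1 (3 pairs, 0.44 to 0.54). In both cases the arrays of a pair also belong to the same processing set, so pairing and set cannot be told apart. They did not between cKO cell types (13 pairs, from -0.30) or between genotypes in cDC2 (from -0.08) and pDC (from -0.26). Alternatives were quantile normalization, a stricter filter and none, probe set means, processing set as a term, array weights, the array number as a block, leaving out the WT arrays of high Xist, and leaving out each array.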

Additional observations from a re-analysis of the deposited data

Results flagged for a closer look

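In groups of 4 or 5 arrays, 3 of 126 gene and group combinations held an array far from the others of its group, where chance gives about 1 in 20. Dnajc3 on cKO pDC array 5 was at 9.73 (log2 intensity), with the nearest other array at 8.95. Spcs2 on cKO cDC1 array 1 was at 9.24, with the nearest at 9.91. Spcs3, a further signal peptidase subunit, was at 7.93 on cKO pDC array 3, with the nearest at 8.88. Their causes were not tested.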

How the results depend on the processing

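No called difference changed direction under any alternative. Counts of members called, for pDC and cDC1, pDC and cDC2, and cDC1 and cDC2 in that order, were 2, 8 and 8 in WT and 7, 10 and 8 in cKO. Quantile normalization gave 5 and 14 for the first 2 of WT and 11 and 21 for those of cKO. It moved the median member of pDC minus cDC1 in WT from -0.01 to 0.13. With the processing set as a term the counts were 15, 19 and 21 in WT, 12, 24 and 18 in cKO, and 3 for cKO minus WT in cDC2. Array weights gave 16, 19 and 15 in cKO and 1 for cKO minus WT in cDC2. Without the 3 WT arrays of high Xist, both WT comparisons with cDC2 gave 4. With the array number as a block, the WT counts were 11, 17 and 20. In cKO, where the numbers do not pair the arrays, the block gave 17 for pDC and cDC2 and 14 for cDC1 and cDC2. A term for 2 sets, chosen after seeing the data, gave 4 for pDC and cDC1 in WT and 17 for pDC and cDC2 in cKO. For these alternatives, shares of all genes called are given only in 2 places. The WT block called 25%, 23.6% and 12%, and the set term 3.04% higher and 1.56% lower for cKO minus WT in cDC2. The other counts therefore do not show whether the members changed more than genes at large.

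With 1 array left out, the counts ran from 2 to 4, 3 to 11 and 4 to 8 in WT, and from 6 to 7, 8 to 16 and 3 to 8 in cKO. For cKO minus WT they ran from 0 to 1 in cDC2 and stayed at 0 in cDC1 and pDC, as did the differences between genotype effects. The 43 called differences of named members kept their call in 373 of 387 other alternatives and in 920 of 989 fits with 1 array left out. Those fits include ones that leave out an array of a group outside the comparison, where the difference itself cannot change. The share kept therefore overstates how well the calls hold against the loss of an array they rest on. The causes of these changes were not tested. With 3 to 5 arrays a group, a difference that missed the threshold is not shown to be absent.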
